A study of Rattus norvegicus with 5 samples.

Results

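The 36 genes described here encode the proteins that bring fatty acids into a cell, activate them, carry them into mitochondria and oxidize them, together with the PPAR receptors that control many of these genes. They were chosen as a list by function, with earlier results of these data known. A gene was taken from the probe sets whose platform annotation names that gene alone, and its value is the mean of those probe sets. All 36 were found, with 47 probe sets, among 14217 genes named in this way and 31042 probe sets other than controls. Of the 36, 27 had 1 probe set and 9 had several.

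Expression was measured in the mandibular condylar cartilage (MCC), the fibrocartilage of the jaw joint, and in the femoral condylar cartilage (FCC), the hyaline cartilage of the knee that served as the control. The groups were the fibrous zone (FZ), the proliferative zone (PZ), the mature chondrocytes zone (MZ) and the hypertrophic chondrocytes zone (HZ) of the MCC, from the joint surface inwards, together with the FCC, taken from its middle and deep zones. All 5 came from wild type male Sprague-Dawley rats aged 5 weeks with no treatment. Cells were cut out by laser from frozen sections of 7 µm, the lysates of 30 sections were pooled according to the labels (the methods give a larger pool for FZ), and the RNA was amplified in repeated cycles and hybridized to 1 array per group. The labels and methods do not say how many animals stood behind a pool.

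Each group has 1 array, so no replicate stands behind any difference and none of them could be tested. The deposited values are log2 values after quantile normalization, less the median that each probe set has across the 5 arrays. They show how arrays differ and hold no expression level. A value of 0.00 marks the array that holds the middle value of a gene with 1 probe set. A gene was called higher or lower from a log2 difference of 1 (2-fold) upwards. The spread between probe sets of the same gene is the only error these data hold. Over the 4525 genes with several probe sets, the median SD of a difference between probe sets ran from 0.12 for MZ minus HZ to 0.36 for PZ minus FCC. Since captured tissue was measured in bulk, fewer cells of a type and less RNA per cell cannot be told apart.

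The hybridization controls, which are spiked in from bacteria and phage, had means of −0.15 in FZ, 0.44 in PZ, −0.02 in MZ, −0.03 in HZ and 0.50 in FCC over 18 probe sets. With the arrays shifted so that these controls have equal means, the median over all genes moved to 0.66 for FZ minus FCC, 0.07 for PZ minus FCC, 0.55 for MZ minus FCC and 0.52 for HZ minus FCC. Among the zones the same shift moved it to 0.59 for FZ minus PZ and to −0.46 for both PZ minus MZ and PZ minus HZ. Differences are given below as deposited, relative to these medians. No fatty acid gene past the size in a comparison turned its sign under that shift, whereas 9, 3, 8 and 9 genes below the size did so for FZ, PZ, MZ and HZ against FCC. The controls for RNA length set apart PZ by GAPDH and FCC by beta-actin. The 5′ minus 3′ difference of GAPDH was −0.07 in FZ, 1.36 in PZ, −0.13 in MZ, 0.27 in HZ and −0.21 in FCC, with the 3′ probe set at −1.46 in PZ. That of beta-actin was 0.14 in FZ, 0.14 in PZ, −0.10 in MZ, −0.24 in HZ and 1.24 in FCC, with the 3′ probe set at −1.76 in FCC.

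Fatty acids enter cells through membrane proteins such as CD36 and the FATP transporters, or are released at the cell surface from triglycerides by lipoprotein lipase, and are held in the cytosol by small binding proteins. Acyl-CoA synthetases join them to coenzyme A, the carnitine shuttle moves the long chains across the mitochondrial membranes, and the beta-oxidation cycle shortens them by repeated dehydrogenation, hydration, a further dehydrogenation and cleavage. The acyl-CoA dehydrogenases hand their electrons to the electron transfer flavoprotein and from there to the respiratory chain. PPAR alpha, gamma and delta are nuclear receptors that bind DNA with RXR at a direct repeat of the letters AGGTCA and switch on many of these genes when a fatty acid binds them. Cartilage has no blood vessels of its own, and chondrocytes are known for drawing most of their energy from glycolysis.

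Values of the list spread more widely over the arrays than those of the median gene. The range over the 5 arrays had a median of 0.97 for the 36 genes and 0.61 for all 14217 genes. It reached 1 in 17 of 36 genes (47.2%), against 27.2% of all genes, and stayed under 0.5 in 11 (30.6%), against 41.1% of all genes. PZ held the lowest value of 15 genes (41.7%), against 25.0% of all genes, and FCC that of 13 (36.1%), against 28.8%. The highest value lay in MZ for 12 genes (33.3%), against 14.3% of all genes. The values of all 36 genes are shown by array in the heat map of the fatty acid genes.

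**Figure D1:**
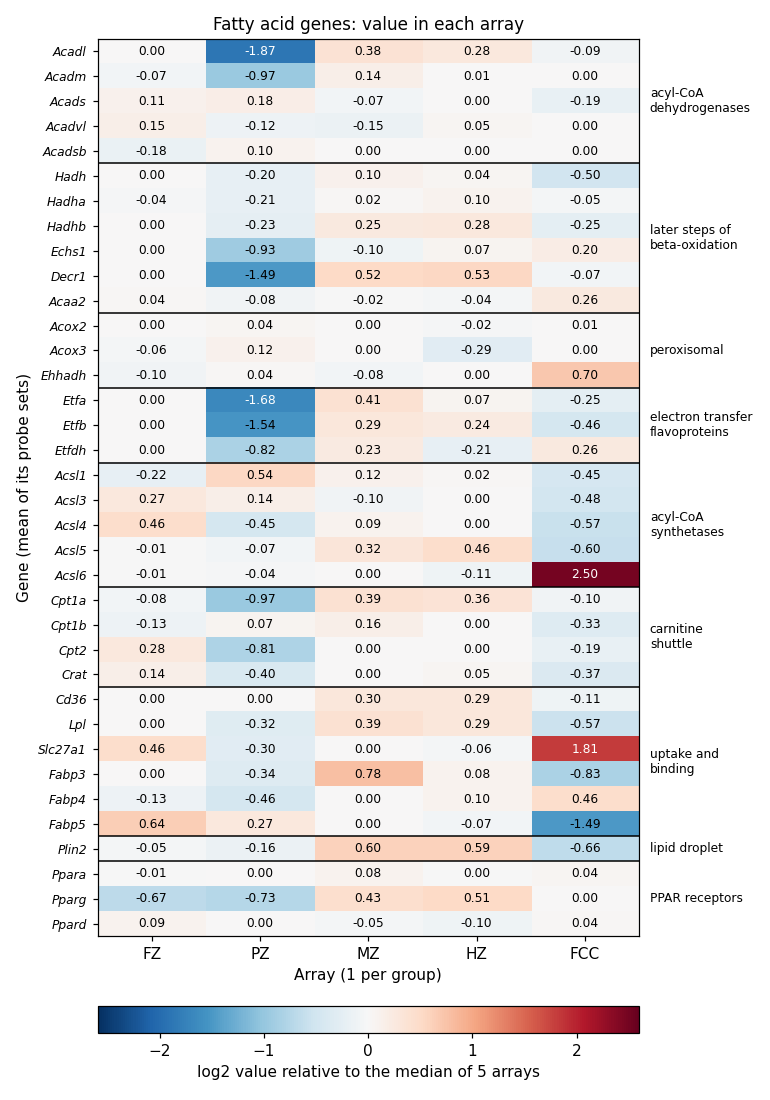
Values of the 36 fatty acid genes, in rows grouped by role, in the 5 arrays, FZ, PZ, MZ, HZ and FCC, as log2 values relative to the median of the arrays (blue lower, red higher; each cell is the mean of the probe sets of the gene in 1 array). The darkest blue cells lie in PZ, where Acadl read −1.87, Etfa −1.68, Etfb −1.54 and Decr1 −1.49, and the darkest red cells lie in FCC, where Acsl6 read 2.50 and Slc27a1 1.81.

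The acyl-CoA dehydrogenases, which start each round of beta-oxidation, split into genes that were low in PZ and genes that varied little. Acadl, the long-chain enzyme, read 0.00 in FZ, −1.87 in PZ, 0.38 in MZ, 0.28 in HZ and −0.09 in FCC. PZ lay more than 1 under each of the other arrays, and the others lay close together. The difference was −1.78 for PZ minus FCC, which is 3.44-fold lower in PZ, and −2.26 for PZ minus MZ, 4.78-fold lower. Acadm, the medium-chain enzyme, read −0.07 in FZ, −0.97 in PZ, 0.14 in MZ, 0.01 in HZ and 0.00 in FCC. Its PZ minus MZ difference of −1.12 passed the size, and its PZ minus FCC difference of −0.97 lay just short of it. Acads, for short chains, ranged from −0.19 in FCC to 0.18 in PZ. Acadvl, for very long chains, ranged from −0.15 in MZ to 0.15 in FZ. Acadsb, which acts on short branched chains, ranged from −0.18 in FZ to 0.10 in PZ. None of these last enzymes reached the size in any comparison.

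Electrons from all these dehydrogenases pass through the same carrier, and its subunits had the pattern of Acadl. Etfa, the alpha subunit of the electron transfer flavoprotein, read 0.00 in FZ, −1.68 in PZ, 0.41 in MZ, 0.07 in HZ and −0.25 in FCC. Etfb, the beta subunit, read 0.00 in FZ, −1.54 in PZ, 0.29 in MZ, 0.24 in HZ and −0.46 in FCC. PZ was the lowest array of both subunits by more than 1. For PZ minus FCC, Etfa differed by −1.43 (2.69-fold lower in PZ) and Etfb by −1.08 (2.12-fold lower). For PZ minus MZ, Etfa differed by −2.08 (4.24-fold lower in PZ) and Etfb by −1.84. Etfdh, the oxidoreductase that passes the electrons on to ubiquinone, read 0.00 in FZ, −0.82 in PZ, 0.23 in MZ, −0.21 in HZ and 0.26 in FCC, so PZ was its lowest array as well. It was lower in PZ by 1.07 against FCC (2.10-fold) and by 1.05 against MZ, and the gap to HZ did not reach the size.

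Among the enzymes of the later steps, Decr1 and Echs1 passed the size in PZ, and the subunits of the trifunctional protein, as means of their probe sets, did not. Decr1, the dienoyl-CoA reductase that prepares unsaturated chains for the cycle, read 0.00 in FZ, −1.49 in PZ, 0.52 in MZ, 0.53 in HZ and −0.07 in FCC. MZ and HZ were almost level with each other and above the rest, and PZ stood more than 1 under every other array. Its differences were −1.42 for PZ minus FCC (2.67-fold lower in PZ), −2.01 for PZ minus MZ and −2.02 for PZ minus HZ. Echs1, the short-chain enoyl-CoA hydratase, read 0.00 in FZ, −0.93 in PZ, −0.10 in MZ, 0.07 in HZ and 0.20 in FCC. It was lower in PZ by 1.13 against FCC (2.19-fold), and PZ was again the lowest array. The remaining genes of this step stayed under the size in every comparison. Hadha and Hadhb, the alpha and beta subunits of the trifunctional protein, read −0.21 and −0.23 in PZ and stayed between −0.25 and 0.28 in the other arrays. Hadh, the short-chain hydroxyacyl-CoA dehydrogenase, had its lowest value, −0.50, in FCC, with −0.91 and −0.08 in its probe sets. Acaa2, the thiolase, had its highest value, 0.26, in FCC, with 0.42 and 0.09 in its probe sets.

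Promoter windows from RefSeq (build GRCr8, 250 bases before to 50 after the start of a gene, read along the gene's strand) were searched for the PPAR direct repeat, AGGTCA, 1 base of any kind, AGGTCA, on both strands and with up to 2 differences. Of the 36 genes, 28 matched the table, with 30 promoters, and Acadl, Decr1, Lpl, Cpt1b, Acaa2, Fabp4, Fabp5 and Ppard had no entry. A match stood in 4 of 30 promoters (13.3%), against 1263 of 33469 promoters of the same length in the whole table (3.77%). With at most 1 difference it stood in 1 promoter (3.33%), against 0.439% of all, and no promoter of the list held it exactly, against 18 of all. The median GC content was 60.5% in promoters of the list and 51.7% in all promoters, which were not matched for it. The genes with a match were Etfa, Echs1, Acadvl and Crat, of which Etfa and Echs1 were lower in PZ than in FCC and Acadvl and Crat passed the size in no comparison. The windows of Etfa and Echs1, low in PZ, and of Acadvl, which held the closest match and varied little, follow with the match in capitals.
Etfa, chr8:64787916-64788215, minus strand, match at −154 to −142 from the start: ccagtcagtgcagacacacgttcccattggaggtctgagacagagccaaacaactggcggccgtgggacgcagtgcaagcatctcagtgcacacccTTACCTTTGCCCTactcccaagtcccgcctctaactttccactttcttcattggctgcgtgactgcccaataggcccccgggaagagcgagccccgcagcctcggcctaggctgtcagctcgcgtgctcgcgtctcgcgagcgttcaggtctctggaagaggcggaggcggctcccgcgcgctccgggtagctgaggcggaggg
Echs1, chr1:204333457-204333756, minus strand, match at −155 to −143: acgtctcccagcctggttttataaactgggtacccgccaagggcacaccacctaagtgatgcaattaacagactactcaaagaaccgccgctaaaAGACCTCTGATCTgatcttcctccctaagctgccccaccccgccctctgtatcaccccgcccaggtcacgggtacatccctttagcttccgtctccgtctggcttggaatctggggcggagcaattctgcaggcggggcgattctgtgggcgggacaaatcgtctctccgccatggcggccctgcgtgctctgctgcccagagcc
Acadvl, chr10:55236656-55236955, minus strand, match at −17 to −5: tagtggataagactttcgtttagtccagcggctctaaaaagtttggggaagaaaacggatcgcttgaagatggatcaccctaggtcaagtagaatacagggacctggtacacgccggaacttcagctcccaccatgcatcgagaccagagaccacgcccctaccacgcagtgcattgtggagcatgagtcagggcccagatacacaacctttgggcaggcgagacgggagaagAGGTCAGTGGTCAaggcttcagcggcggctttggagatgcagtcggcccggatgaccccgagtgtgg
A match describes these letters alone and does not show that a receptor binds there.

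Hadha and Hadhb start 301 bases apart on opposite strands of chromosome 6, so their windows share 200 bases. The window of Hadha (chr6:31907551-31907850, plus strand) is printed with the shared bases in capitals. These bases lie upstream of both starts, and the start of Hadhb lies outside the printed window.
Hadha: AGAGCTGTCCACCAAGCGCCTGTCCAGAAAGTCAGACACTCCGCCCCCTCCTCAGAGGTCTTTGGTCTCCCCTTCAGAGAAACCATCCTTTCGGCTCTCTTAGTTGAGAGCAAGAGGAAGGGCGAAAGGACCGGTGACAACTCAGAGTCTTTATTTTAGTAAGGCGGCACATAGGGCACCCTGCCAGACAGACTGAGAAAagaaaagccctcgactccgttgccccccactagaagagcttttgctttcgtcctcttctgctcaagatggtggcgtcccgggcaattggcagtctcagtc
Hadha read −0.04 in FZ, −0.21 in PZ, 0.02 in MZ, 0.10 in HZ and −0.05 in FCC. Hadhb read 0.00 in FZ, −0.23 in PZ, 0.25 in MZ, 0.28 in HZ and −0.25 in FCC. These values, for Hadha a mean of probe sets, were below 0 in PZ and FCC and above 0 in MZ and HZ, in each case by less than the counted size. Hadha has 3 probe sets that do not run together, with −0.68, 0.04 and 0.00 in PZ, so the mean hides a probe set that was low there, while the other two stayed near 0 in PZ. In the same order they read 0.36, −0.04 and −0.03 in HZ and −0.25, 0.11 and 0.00 in FCC, so the signs of the mean are not shared by all.

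The peroxisomal genes, whose enzymes shorten very long and branched chains outside mitochondria, showed no difference of the counted size. Acox2, the branched-chain oxidase of bile acid intermediates, stayed between −0.02 and 0.04 in all arrays. Acox3, also a branched-chain oxidase, ranged from −0.29 in HZ to 0.12 in PZ. Ehhadh, the peroxisomal bifunctional enzyme, read 0.70 in FCC and between −0.10 and 0.04 in the zones. As deposited, PZ, the lowest array for much of the mitochondrial pathway, was the lowest array for none of the peroxisomal genes. With equal hybridization controls PZ was the lowest array of Ehhadh, at −0.25.

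In the carnitine shuttle, low PZ values appeared again but with less agreement between probe sets. Cpt2, which remakes acyl-CoA on the inner membrane, read 0.28 in FZ, −0.81 in PZ, 0.00 in MZ, 0.00 in HZ and −0.19 in FCC. The FZ minus PZ difference of 1.09 passed the size and its differences of PZ from the other arrays did not. Cpt1a, the liver form of the carnitine palmitoyltransferase that sets the entry of long chains, read −0.08 in FZ, −0.97 in PZ, 0.39 in MZ, 0.36 in HZ and −0.10 in FCC. PZ was the lowest array and the PZ minus MZ difference was −1.36 ± 1.72 (SD between 2 probe sets), so the spread between probe sets was larger than the difference. One probe set carried it, with −1.94 in PZ, and the other read 0.00 there. Cpt1b, the muscle form, ranged from −0.33 in FCC to 0.16 in MZ. Crat, which makes short acyl carnitines, ranged from −0.40 in PZ to 0.14 in FZ.

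The depth of the PZ values can be read gene by gene and probe set by probe set. PZ minus the mean of the other 4 arrays was −2.02 for Acadl, −1.74 for Decr1, −1.73 for Etfa and −1.56 for Etfb. It was −1.11 for Cpt1a, −0.97 for Echs1, −0.89 for Etfdh and −0.83 for Cpt2. Acadm lay between Cpt1a and Echs1. All of these genes except Cpt1a rest on 1 probe set, so no second probe set checks them. Acsl1 went the other way on the same measure, with 1.26, 0.17 and 0.59 in its 3 probe sets.

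**Figure D2:**
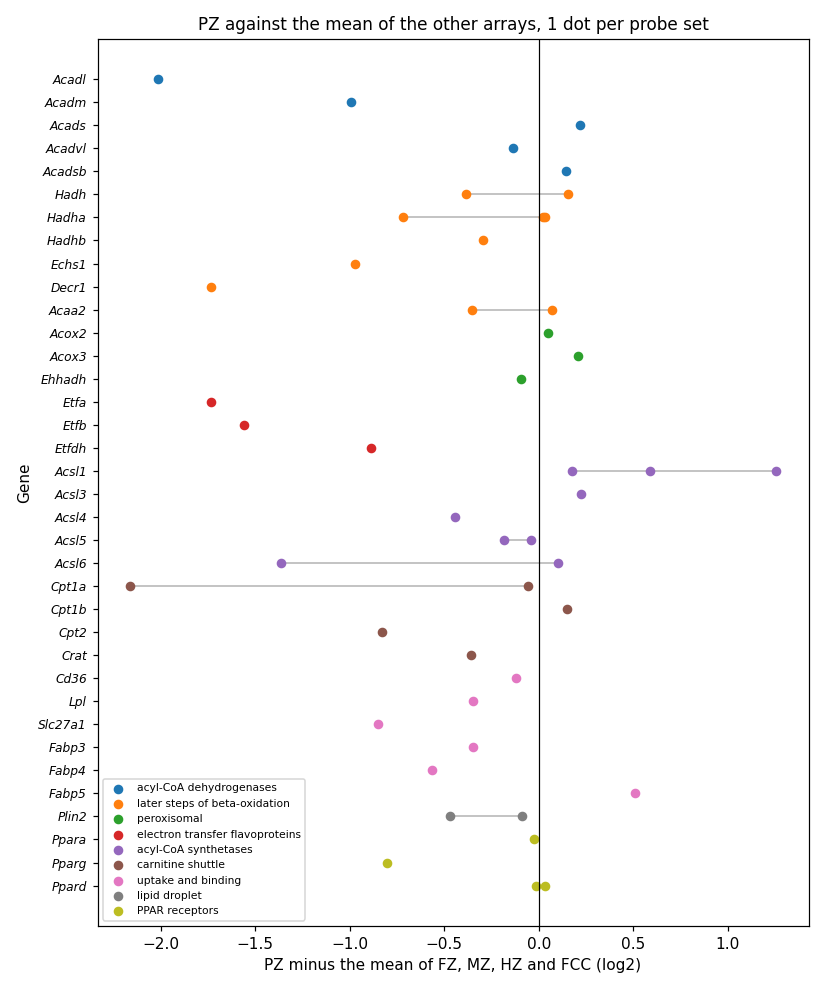
PZ minus the mean of FZ, MZ, HZ and FCC (log2, horizontal axis) for each of the 47 probe sets of the 36 genes, coloured by role, with a grey line joining probe sets of the same gene. Acadl at −2.02, Decr1 at −1.74, Etfa at −1.73 and Etfb at −1.56 lie farthest to the left among genes with 1 probe set, while the 2 probe sets of Cpt1a lie far apart.

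Counted over the list, 8 of 36 genes (22.2%) were lower in PZ than in FCC, against 7.49% of all genes, and 1 was higher, against 4.65%. The 8 were Acadl, Decr1, Echs1, Etfa, Etfb, Etfdh, Acsl6 and Slc27a1, of which Acsl6 and Slc27a1 were lower than FCC in all 4 zones. Against MZ, 9 genes (25.0%) were lower in PZ and 0 were higher, against 7.67% and 1.97% of all genes. Those were Acadl, Acadm, Cpt1a, Decr1, Etfa, Etfb, Etfdh, Fabp3 and Pparg. Against HZ, 6 genes (16.7%) were lower in PZ and 0 were higher, against 8.41% and 3.37% of all genes. FZ was higher than PZ in 5 genes (13.9%), namely Acadl, Cpt2, Decr1, Etfa and Etfb, and lower in 0, against 6.10% and 1.12% of all genes. The PZ minus FCC difference had a median of −0.04 over the list and 0.01 over all genes, and the PZ minus MZ difference a median of −0.35 and 0.00. PZ stood at least 1 under every other array in 4 genes of the list (11.1%), Acadl, Decr1, Etfa and Etfb, against 2.0% of all genes. It stood above every other array in 0, against 0.253% of all genes. No gene of the list stood apart in this way in the remaining zones, against 0.478% of all genes above and 0.155% under in FZ, 0.113% and 0.0211% in MZ, and 0.127% and 0.338% in HZ. The low 3′ GAPDH reading belongs to the same array, and the low 3′ beta-actin reading to FCC, and their part in these differences was not tested. All comparisons with PZ share that array.

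**Figure D3:**
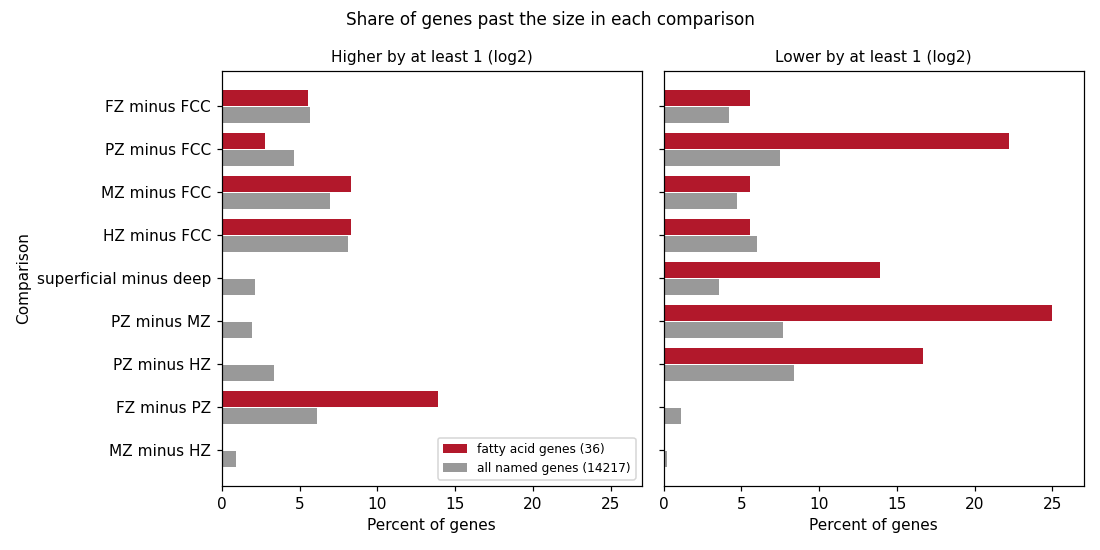
Percent of the 36 fatty acid genes (red) and of all 14217 named genes (grey) that were at least 1 higher (left panel) or at least 1 lower (right panel) on the log2 scale in each of 9 comparisons, with 1 array on each side except for superficial minus deep. The red bars are longest for genes lower in PZ, at 22.2% against FCC and 25.0% against MZ, where the grey bars stand at 7.49% and 7.67%.

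Between the joint surface and the bone, the zones were grouped by depth into a superficial pair (FZ and PZ) and a deep pair (MZ and HZ). A gene was counted here when the pair means differed by at least 1 and both superficial zones lay on the same side of both deep zones. Of the 36 genes, 5 (13.9%) were lower in the superficial pair and 0 were higher, against 3.57% and 2.15% of all genes. They were Acadl with −1.27, Decr1 with −1.27, Pparg with −1.17, Etfa with −1.08 and Etfb with −1.04, and the median over the list was −0.18. When FZ alone was set against the deep pair, Pparg was the only gene that stayed past the size, and Acadl differed by −0.33, Decr1 by −0.53, Etfa by −0.24 and Etfb by −0.27. That count of 1 of 36 (2.78%) lay at the share of all genes under the same setting, 2.83%. MZ and HZ differed by the counted size in 0 genes of the list, against 0.907% of all genes higher in MZ and 0.204% lower. FZ was lower than MZ and than HZ in 1 gene each, Pparg both times, against 2.75% and 3.21% of all genes, and it was higher in 0, against 2.58% and 3.57%.

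Pparg, the receptor best known for driving fat storage and fat cell formation, read −0.67 in FZ, −0.73 in PZ, 0.43 in MZ, 0.51 in HZ and 0.00 in FCC. Both superficial zones were low and both deep zones high, with FCC between them. The 4 differences of a superficial from a deep zone ran from −1.10 for FZ minus MZ to −1.25 for PZ minus HZ, and the pair means differed 2.26-fold. Against FCC none of its differences reached the size, and with the arrays set to equal hybridization controls FZ minus FCC read −0.02, MZ minus FCC 0.96 and HZ minus FCC 1.04. Pparg has 1 probe set, of a design that detects several transcripts of the gene. Ppara, the receptor that drives fatty acid oxidation in liver, stayed between −0.01 and 0.08 in all arrays. Ppard, the receptor found in most tissues, stayed between −0.10 and 0.09. These values give no level, so they do not show whether Ppara or Ppard was made at all.

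Several other genes of uptake and storage had their highest values in the deep zones, though they did not reach the counted size between the pairs. Plin2, the coat protein of lipid droplets in most cells, read −0.05 in FZ, −0.16 in PZ, 0.60 in MZ, 0.59 in HZ and −0.66 in FCC. Both of its probe sets were high in the deep zones, with 0.60 for MZ in each and with 0.65 beside 0.53 for HZ, and both were low in FCC, with −0.65 beside −0.67. The MZ minus FCC difference was 1.26 ± 0.02 (SD between 2 probe sets, 2.39-fold higher in MZ) and the HZ minus FCC difference 1.25 ± 0.07 (2.38-fold). Cd36, the scavenger receptor that takes up long chains, read 0.00 in FZ, 0.00 in PZ, 0.30 in MZ, 0.29 in HZ and −0.11 in FCC. Lpl, lipoprotein lipase, read 0.00 in FZ, −0.32 in PZ, 0.39 in MZ, 0.29 in HZ and −0.57 in FCC. Neither Cd36 nor Lpl reached the size in any comparison.

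Pparg, Cd36, Lpl, Plin2 and Fabp4 are also made by macrophages, endothelium or fat cells, so the markers of those cells were read in the same arrays. Of 10 macrophage and monocyte markers, 4 (40%) were lower in the superficial than in the deep pair and 0 were higher. Over all genes 3.57% were lower and 2.15% higher. The markers had a median of −0.76, and the largest differences were −1.62 for Csf1r and −1.40 for Cd68. Of the 10 markers, 9 lay below 0 and 1 lay above, at 0.68. Their mean was 0.07 in FZ, −0.44 in PZ, 0.54 in MZ, 0.62 in HZ and −0.67 in FCC. Of 10 endothelial markers measured, 5 (50%) were lower in the superficial pair and 0 were higher. They had a median of −1.04, with −1.60 for Cldn5 and −1.22 for Tie1. Their mean was −0.11 in FZ, −0.34 in PZ, 0.76 in MZ, 0.61 in HZ and −0.36 in FCC. The deep zones thus had higher means of both marker lists. By the same size, 5 macrophage (50%) and 7 endothelial markers (70%) were higher in MZ than in FCC, against 6.98% of all genes. All 7 red cell markers measured (100%, against 3.57% of all genes) were lower in the superficial pair as well, with a median of −1.79. Of 9 fat cell markers measured, 1 (11.1%), Cfd with −2.10, was lower in the superficial pair and the list had a median of 0.04. The defining fat cell gene Adipoq read between −0.12 and 0.00 in the zones and 0.67 in FCC. These values hold no level, so no marker can be called absent and no summed level is given, and the part of these cells in the values of Pparg, Plin2, Cd36 and Lpl was not tested.

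The binding proteins differed from each other in where they were highest. Fabp3, the heart form, read 0.00 in FZ, −0.34 in PZ, 0.78 in MZ, 0.08 in HZ and −0.83 in FCC. MZ stood highest and FCC lowest, with an MZ minus FCC difference of 1.61 (3.05-fold higher in MZ) and a PZ minus MZ difference of −1.12. Of 10 skeletal muscle markers, 4 (40%) were higher in MZ than in FCC and 1 (10%) was lower. Over all genes 6.98% were higher there and 4.74% lower, and the part of muscle in the Fabp3 value was not tested. Fabp4, the form of fat cells and macrophages, read −0.13 in FZ, −0.46 in PZ, 0.00 in MZ, 0.10 in HZ and 0.46 in FCC. No comparison of Fabp4 reached the size, and its FZ minus FCC value of −0.59 read 0.06 with equal hybridization controls. Fabp5, the epidermal form found in skin and many other tissues, read 0.64 in FZ, 0.27 in PZ, 0.00 in MZ, −0.07 in HZ and −1.49 in FCC. FCC was lowest by more than 1. As deposited, the zones ran downwards in order from the surface to the bone, but the MZ minus HZ step of 0.07 lay under the median probe set SD of 0.12. The order was lost with equal hybridization controls, where PZ was the lowest zone at −0.01, under HZ at 0.11 and MZ at 0.17. The zone minus FCC differences of Fabp5, like all differences from FCC, rest on the array with the low 3′ beta-actin reading, whose part was not tested. They were 2.13 for FZ (4.37-fold higher), 1.77 for PZ (3.41-fold), 1.49 for MZ (2.81-fold) and 1.43 for HZ (2.69-fold). Fabp5 was the 1 gene of the list (2.78%) with FCC at least 1 under every other array, against 1.83% of all genes.

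Slc27a1, the fatty acid transporter FATP1, had the opposite direction to Fabp5. It read 0.46 in FZ, −0.30 in PZ, 0.00 in MZ, −0.06 in HZ and 1.81 in FCC. FCC was the highest array by more than 1, and the zone minus FCC differences were −1.35 for FZ (2.55-fold lower), −2.11 for PZ (4.33-fold), −1.81 for MZ (3.52-fold) and −1.87 for HZ (3.67-fold). With the arrays set to equal hybridization controls, the FZ minus FCC difference was −0.70, under the size.

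**Figure D4:**
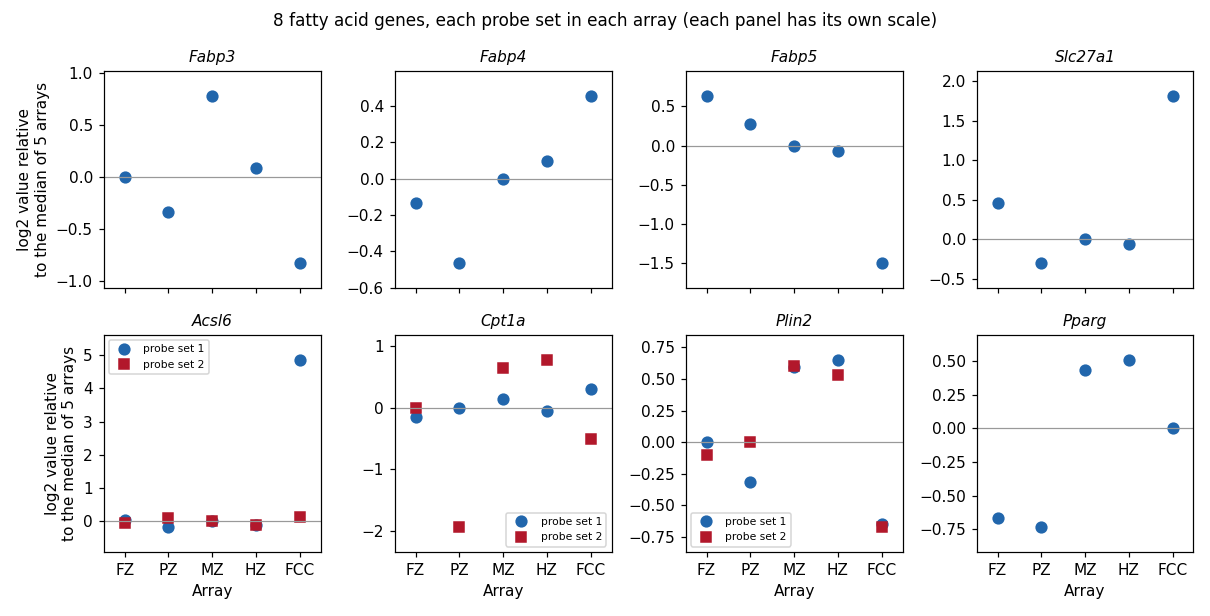
Values of 8 fatty acid genes in the 5 arrays (log2, relative to the median of the arrays; each point is a probe set, and each panel has its own scale). Fabp5 is lowest in FCC at −1.49 and Slc27a1 highest there at 1.81, Pparg is below 0 in FZ and PZ and above 0 in MZ and HZ, and the 2 probe sets part widely for Acsl6 in FCC (4.86 and 0.13) and for Cpt1a in PZ (−1.94 and 0.00).

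The long-chain acyl-CoA synthetases join fatty acids to coenzyme A, each with its own place in the cell and its own preferred chains. Acsl6, a form known from brain and red cell precursors, read −0.01 in FZ, −0.04 in PZ, 0.00 in MZ, −0.11 in HZ and 2.50 in FCC. Its 2 probe sets read 4.86 and 0.13 in FCC, and both stayed between −0.17 and 0.09 in the zones. The zone minus FCC differences of the mean ran from −2.50 to −2.61, and for FZ minus FCC the value was −2.50 ± 3.29 (SD between 2 probe sets), so the spread between probe sets was larger than the difference. Acsl6 and Slc27a1 were the 2 genes of the list (5.56%) with FCC at least 1 above every other array, against 2.62% of all genes. Acsl4, which prefers arachidonic acid, read 0.46 in FZ, −0.45 in PZ, 0.09 in MZ, 0.00 in HZ and −0.57 in FCC. Its FZ minus FCC difference of 1.03 passed the size narrowly. Acsl5, a mitochondrial and endoplasmic reticulum form, read −0.01 in FZ, −0.07 in PZ, 0.32 in MZ, 0.46 in HZ and −0.60 in FCC. Both of its probe sets were highest in HZ, at 0.48 and 0.44, and lowest in FCC, at −0.61 and −0.58, and the HZ minus FCC difference was 1.06 ± 0.05 (SD between 2 probe sets). Acsl1, the main form of fat, liver and heart, ranged from −0.45 in FCC to 0.54 in PZ. Its PZ minus FCC difference of 0.99 lay just short of the size, with 1.64, 0.30 and 1.02 in its 3 probe sets. With equal hybridization controls that difference read 1.05. Acsl3, a form tied to lipid droplet growth, ranged from −0.48 in FCC to 0.27 in FZ.

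Set against FCC, the zones other than PZ held few genes past the size. In FZ, 2 of 36 genes (5.56%) were higher, Acsl4 and Fabp5, and 2 were lower, Acsl6 and Slc27a1, against 5.69% and 4.21% of all genes. In MZ, 3 (8.33%) were higher, Fabp3, Fabp5 and Plin2, and Acsl6 and Slc27a1 were lower, against 6.98% and 4.74% of all genes. In HZ, 3 were higher, Acsl5, Fabp5 and Plin2, and the same pair was lower, against 8.09% and 5.98% of all genes. These shares lay near those of all genes. The medians over the list were 0.10 for FZ, 0.38 for MZ and 0.32 for HZ, against 0.02, 0.03 and 0.00 over all genes. With equal hybridization controls 11 genes were higher than FCC and 1 was lower in FZ. By the same count 2 were higher and 8 lower in PZ. In MZ 14 were higher and 2 lower, and in HZ 12 were higher and 2 lower. The higher genes made up 30.6%, 5.56%, 38.9% and 33.3% of the list in FZ, PZ, MZ and HZ. Of all genes 24.3%, 5.25%, 19.8% and 20.5% were then higher. Lower genes made up 2.78%, 22.2%, 5.56% and 5.56% of the list in that order, against 2.0%, 6.80%, 2.48% and 3.30% of all genes.

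Genes of the wider pathway outside the 36 were read from lists of the same kind. Of 38 measured genes of other oxidation, activation and transport steps, 0 were higher and 3 lower in FZ than in FCC, 2 were higher and 4 lower in PZ, 1 was higher and 1 lower in MZ, and 1 was higher and 3 lower in HZ. In PZ this is 5.26% of the list higher and 10.5% lower, near the 4.65% and 7.49% of all genes. Lower genes made up 7.89% of the list in FZ, 2.63% in MZ and 7.89% in HZ, against 4.21%, 4.74% and 5.98% of all genes. Higher genes made up 0% in FZ and 2.63% in both MZ and HZ, against 5.69%, 6.98% and 8.09%. The superficial minus deep difference of the 38 genes had a median of 0.02. By that difference 0 were higher and 3 lower (0% and 7.89%, against 2.15% and 3.57% of all genes). Acsf2, a synthetase for medium chains, read −0.04 in FZ, −1.80 in PZ, 0.17 in MZ, 0.00 in HZ and 0.82 in FCC, with PZ the lowest array, as for Acadl. Acss1, which activates acetate in mitochondria, read −1.43 in FZ, −1.64 in PZ, 0.00 in MZ, 0.77 in HZ and 0.50 in FCC, low in both superficial zones. Slc27a5, a bile acid and fatty acid CoA ligase known from liver, read 0.00 in FZ, −0.10 in PZ, 0.82 in MZ, 1.18 in HZ and −0.97 in FCC.

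Of 11 measured PPAR partners and known targets, 1 was higher in FZ than in FCC, 1 in PZ, 3 in MZ and 3 in HZ. Over all genes 5.69%, 4.65%, 6.98% and 8.09% were higher. In each zone 0 of the 11 were lower, against 4.21%, 7.49%, 4.74% and 5.98% of all genes. Each gene is 9.09% of so short a list. Ucp2, a mitochondrial carrier, read 0.00 in FZ, −0.56 in PZ, 1.23 in MZ, 1.61 in HZ and −0.11 in FCC, so both deep zones stood above the rest. Ucp2 is also known from macrophages, whose markers had a higher mean in the same zones, and their part in this value was not tested. Ppargc1b, a coactivator of mitochondrial genes, read 0.00 in FZ, −0.55 in PZ, 0.00 in MZ, 0.75 in HZ and −1.47 in FCC.

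Of 20 genes of lipid droplets and triglyceride turnover, 3, 4, 3 and 3 were lower than FCC in FZ, PZ, MZ and HZ, and 1, in MZ, was higher. These are 15%, 20%, 15% and 15% of the list lower, against 4.21%, 7.49%, 4.74% and 5.98% of all genes. Higher genes made up 0%, 0%, 5% and 0% of the list, against 5.69%, 4.65%, 6.98% and 8.09% of all genes. Those with large differences were high in FCC alone. G0s2, an inhibitor of the triglyceride lipase ATGL, read −0.15 in FZ, −0.75 in PZ, 0.00 in MZ, 0.01 in HZ and 3.27 in FCC. Cidea, a lipid droplet protein known from brown fat, read 0.00 in FZ, −0.25 in PZ, 0.17 in MZ, −0.25 in HZ and 3.36 in FCC. Lpin1, a phosphatidate phosphatase of triglyceride synthesis, read −0.17 in FZ, −0.21 in PZ, 0.00 in MZ, −0.11 in HZ and 1.80 in FCC as the mean of 2 probe sets. Like Slc27a1, these genes stood highest in FCC, and Plin2 stood lowest there.

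The genes of fatty acid synthesis and desaturation lay mostly above 0 between the superficial and the deep pair. Of 17 measured genes, 2 (11.8%) were higher in the superficial than in the deep pair and 0 were lower, against 2.15% and 3.57% of all genes. The 17 genes had a median of 0.49 with 16 above 0, whereas the 36 genes had a median of −0.18 with 12 above 0. Scd, the stearoyl-CoA desaturase, read 1.92 in FZ, 0.01 in PZ, −1.34 in MZ, −2.03 in HZ and 0.00 in FCC, falling in order from the surface to the bone. Me1, which supplies NADPH for the synthesis, read 0.00 in FZ, 0.18 in PZ, −0.02 in MZ, −0.79 in HZ and 1.53 in FCC as the mean of 2 probe sets.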

How the data were processed

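RNA of laser-captured cells, pooled per group, was hybridized to Affymetrix Rat Genome arrays, 1 per group, which limits the precision. The authors ran RMA in GeneSpring GX to obtain the log2 values they deposited: quantile normalization, log2 and subtraction, for all 31099 probe sets, of the median across the 5 arrays, with background correction described under MAS5 (both named in the submitters' processing notes without versions). Quantile normalization removes a difference in total RNA between arrays. The genome build is not named in the labels or methods. The 57 control probe sets were set aside. Of the other 31042, 20826 carry 1 gene symbol, 436 several and 9780 none in the platform annotation, and genes were averaged over probe sets with 1 symbol.

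Differences between arrays were computed in pandas 2.3.3 and numpy 2.4.6 (Python 3.11.15) and plotted with matplotlib 3.10.9. The functions were tested on simulated data. No test fits 1 array per group. A difference of at least 1 on the log2 scale was counted in the 10 pairs of arrays and between the superficial and deep pairs. All 36 genes are named. From the pathway lists, genes past 2 in any pair were named, and from the marker lists counts, medians and the 2 largest differences. The 36 genes and all lists were chosen with earlier results of these data known. The alternatives were centring arrays on their median, a shift by the hybridization controls, sizes of 1.4 and 2, the most variable probe set (by SD) of a gene, and probe sets without a suffix. Lists of marker genes for platelets, osteoclasts, skeletal muscle, chondrocytes, hypertrophic chondrocytes and tendon were also computed. Between the superficial and the deep pair, 4 of 7 platelet markers were lower (median −1.83), 2 of 4 osteoclast markers were lower (−1.05), 5 of 7 hypertrophic markers were lower (−1.39), 8 of 10 tendon markers were higher (2.41), 0 of 10 skeletal muscle markers passed the size (−0.05), and of 9 chondrocyte markers 1 was lower and 1 higher (−0.52). Over all genes 3.57% were lower and 2.15% higher between these pairs. Of the skeletal muscle markers, 20%, 10%, 40% and 10% were higher than FCC in FZ, PZ, MZ and HZ. Over all genes 5.69%, 4.65%, 6.98% and 8.09% were higher. Lower than FCC were 30%, 20%, 10% and 20% of these markers, against 4.21%, 7.49%, 4.74% and 5.98% of all genes. Against FCC, 7, 6, 7 and 7 of the 9 chondrocyte markers were lower in FZ, PZ, MZ and HZ. These are 77.8%, 66.7%, 77.8% and 77.8% of the list, against 4.21%, 7.49%, 4.74% and 5.98% of all genes.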

Additional observations from a re-analysis of the deposited data

Results flagged for a closer look

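Pparg lay below FCC in both superficial zones, at −0.67 in FZ and −0.73 in PZ, and above it in both deep zones, at 0.43 in MZ and 0.51 in HZ, so that the superficial minus deep difference relative to FCC was −1.17. Every array of the superficial pair and every array of the deep pair lay on opposite sides of FCC, each zone being 1 array, and this difference was not tested. With equal hybridization controls FZ minus FCC was −0.02.

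A probe set that carries the names Cd36l1 and Cd36 together was not used for any gene above, since its signal cannot be given to either name. It read −1.48 in FZ, −1.58 in PZ, 0.33 in MZ, 0.89 in HZ and 0.00 in FCC, with a superficial minus deep difference of −2.14. The probe set used for Cd36 alone read 0.00 in FZ, 0.00 in PZ, 0.30 in MZ, 0.29 in HZ and −0.11 in FCC.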

How the results depend on the processing

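No paired analysis was possible because each group has 1 array. Centring arrays on their median could change nothing, since the median of all probe sets was already 0 in every array. With equal hybridization controls, 28 differences past the size, from FCC or between the superficial and deep pairs, were set against the probe set spread. Of these, 11 moved by more, 17 by less, and 0 turned round. A gene with 1 probe set was given the median SD of the genes with several. The shift is the same for every gene, so all such genes of a comparison had the same outcome. Acsl6 moved by less than the wide spread of its own probe sets. Differences between single zones were not checked in this way. With these controls equal, genes higher than FCC numbered 11, 2, 14 and 12 for FZ, PZ, MZ and HZ (2, 1, 3 and 3 as reported). Of all genes, 24.3%, 5.25%, 19.8% and 20.5% were then higher. Genes lower in FZ numbered 1 (2 as reported, 2.0% of all genes). Those with FCC above every other array numbered 1 (2 as reported, 1.46% of all genes). At a size of 1.4, 1 gene was higher in FZ than in FCC, 1 was higher in HZ, 1 was lower in FZ and 5 were lower in PZ (8), that is 2.78%, 2.78%, 2.78% and 13.9% of the list, against 2.62%, 4.19%, 2.59% and 4.07% of all genes. At that size 0 were lower in the superficial than in the deep pair (5), against 1.41% of all genes, and 1 had FCC above every other array, against 1.65%. When the size was 2, Acsl6 and Slc27a1 were the 2 genes lower in PZ than in FCC, against 251 of all 14217 genes. Acadl, Decr1 and Etfa were the 3 genes lower in PZ than in MZ, against 128 of all genes. Between the superficial and the deep pair 0 were then lower, against 39 of all genes. With the most variable probe set of each gene, which leaves the 27 genes with 1 probe set as they are, 2 genes were higher in PZ, 5 in MZ and 5 in HZ than in FCC (5.56%, 13.9% and 13.9%), against 7.56%, 9.78% and 11.1% of all genes. Without PZ, an alternative chosen after seeing the data, 1 gene, Pparg, was lower in FZ than in the deep pair (2.78%, against 2.83% of all genes). Cd36, Fabp4 and Pparg have only probe sets with a suffix and no value without them. The values hold no signal over background, so genes near background cannot be set apart.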
